A study of Mus musculus with 12 samples.

Results

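The glucocorticoid-responsive genes described here are 9 genes chosen by symbol from the 22276 symbols of the expression table, and all 9 were found. They comprise the receptor Nr3c1, the hormone-activating enzyme Hsd11b1, the induced genes Fkbp5, Tsc22d3, Sgk1, Zbtb16 and Cdkn1a, and the metallothioneins Mt1 and Mt2. RNA-seq was performed on white fat (white adipose tissue, WAT), brown fat (BAT), liver and quadriceps muscle of male C57BL/6J mice aged 17 weeks. NCD-veh mice ate normal chow and received vehicle, HFD-veh mice ate a high-fat diet from 8 weeks of age and received vehicle, and HFD-ncls mice ate the same diet and received narciclasine (ncls), an alkaloid of daffodil-family plants. Ncls at 1 mg/kg, or vehicle (a cyclodextrin solution), was given weekly by mouth for 7 weeks from 10 weeks of age. There was 1 library for each organ and group, 12 in all, and neither the number of mice behind a library nor pooling is stated. No spread between animals could therefore be estimated, no p-value is given, and all comparisons below describe single libraries.

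Glucocorticoids (corticosterone in mice) enter cells freely and bind the receptor, which is held in the cytoplasm by heat shock protein chaperones. The bound receptor moves into the nucleus and, at palindromic response elements, switches on genes such as Fkbp5, Tsc22d3, Sgk1 and Zbtb16. The hormone is released from the adrenal gland on a daily cycle and under stress. It drives fuel release from fat, glucose production in liver and protein breakdown in muscle. Local supply is also set by Hsd11b1, the reductase that regenerates active hormone from its inert keto form. Hormone levels were not analysed here.

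Values are FPKM, fragment counts scaled to transcript length and to the mapped fragments of the library, as the authors deposited them. Where 3 values of a gene stand together without group names, they run from NCD-veh through HFD-veh to HFD-ncls. Fold values are ratios of FPKM. Log2 ratios were taken after adding 0.1 FPKM to both values, and a gene was counted as tested, although no statistical test was run, where either of the compared libraries reached 1 FPKM. The 9 genes reached it in all 8 comparisons (diet, HFD-veh relative to NCD-veh, and ncls, HFD-ncls relative to HFD-veh, in each organ). From the step size of very low values, the libraries held approximately 18900000 (HFD-ncls WAT) to 27500000 (NCD-veh BAT) fragments, and the lowest level among the 9 genes, Cdkn1a in HFD-veh liver, rested on about 65 fragments.

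At 1 FPKM or more, the 3 liver libraries held 11 of 11 hepatocyte genes and the 3 muscle libraries 10 of 10 fast-fiber genes. Each WAT library held 7 of 7 adipocyte genes, and BAT held 6 of 7 in NCD-veh and 7 of 7 in both HFD groups. Of 5 brown-adipocyte genes, BAT held 5 in NCD-veh and HFD-veh and 4 in HFD-ncls. Several libraries stood apart. Liver transcripts were present in HFD-veh muscle: 11 hepatocyte markers summed to 368 FPKM there, against 16.7 in NCD-veh and 7.69 in HFD-ncls muscle. In both of the latter Apoc3, Fgb and Cps1 were listed at 0. Fast-fiber markers in BAT summed to 2011 FPKM (NCD-veh), 828 (HFD-veh) and 120 (HFD-ncls). In liver they summed to 64.3 FPKM in HFD-veh, against 2.42 in NCD-veh and 3.49 in HFD-ncls. In WAT, 10 of the 11 hepatocyte markers (all but Cyp2e1) were highest in HFD-ncls, for example Apoa2 at 0.690, 8.10 and 38.4 FPKM. The NCD-veh liver library was high in acute-phase transcripts, as described with the metallothioneins.

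**Figure D1:**
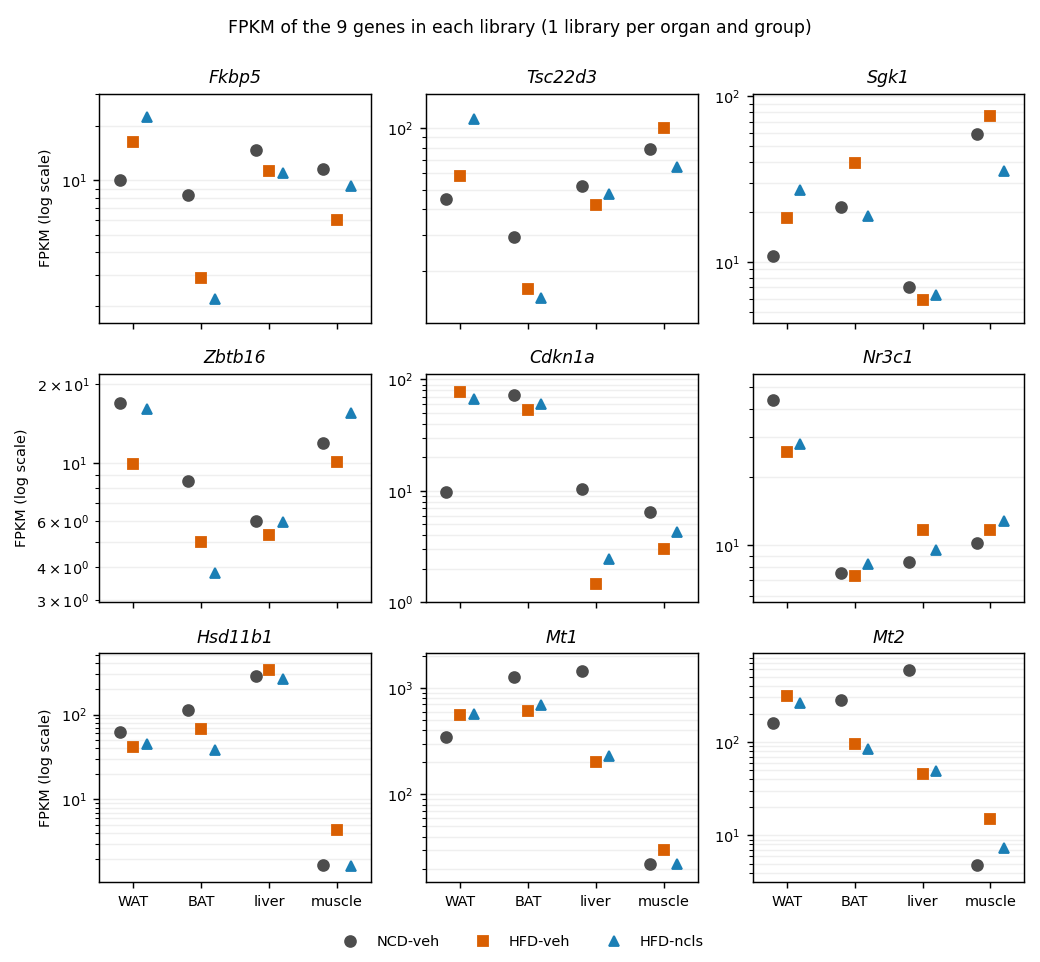
FPKM (log axis, a separate scale in each panel) of each gene by organ, with 1 point per library: circles for NCD-veh, squares for HFD-veh and triangles for HFD-ncls. Cdkn1a in WAT and Mt1, Mt2 and Cdkn1a in liver have NCD-veh points far from the other groups, while the points of Zbtb16 and Sgk1 in liver lie close together.

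Nr3c1, the glucocorticoid receptor gene (mm9, chromosome 18, 39570199 to 39650955, minus strand), stayed within 2-fold in all 8 comparisons. Its level was highest in WAT, at 43.5, 25.8 and 28.0 FPKM. Both WAT libraries of HFD mice were lower than NCD-veh WAT, with a 1.69-fold difference for HFD-veh (log2 ratio -0.75). Macrophage markers summed to 654, 929 and 1168 FPKM in these 3 WAT libraries, and the share of this in the receptor's level was not tested. In tissue RNA, fewer cells of a type and less RNA per cell cannot be told apart.
The other organs had less receptor RNA, and the ranges of liver and muscle overlapped. BAT held 7.56, 7.33 and 8.23 FPKM, liver 8.47, 11.6 and 9.53, and muscle 10.3, 11.6 and 12.8. Between HFD-ncls and HFD-veh the log2 ratio of Nr3c1 was 0.12 in WAT, 0.16 in BAT, -0.28 in liver and 0.14 in muscle, so receptor RNA differed little with ncls in these libraries.

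Genes of the chaperone machinery mostly stayed within 2-fold, as most tested genes did. Of 11 that hold the receptor or help to fold it, among them Hsp90aa1, Hsp90ab1, Fkbp4 and Ptges3, Hspa1a alone passed 2-fold. Its level was 0.567, 1.30 and 0.787 FPKM in BAT, higher with diet, and 4.45, 1.17 and 1.99 in liver, lower with diet. That is 1 of 11 genes in each of these comparisons. Of all tested genes, 4.29% passed 2-fold with diet in BAT and 5.12% in liver, in either direction. The mineralocorticoid receptor gene Nr3c2, which also binds corticosterone, reached at most 2.21 FPKM (NCD-veh WAT).

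Hsd11b1 (chromosome 1, 195047824 to 195090248, minus strand) was most abundant in liver, which held 287, 336 and 263 FPKM. The fat depots came next with overlapping ranges: WAT held 62.9, 41.4 and 45.3 FPKM, and BAT 113, 66.7 and 37.9. In BAT the 3 libraries were therefore spread 2.99-fold, with HFD-veh 1.70-fold below NCD-veh (log2 ratio -0.77) and HFD-ncls 1.76-fold below HFD-veh (log2 ratio -0.81). Each of these steps passed 1.4-fold, the second threshold of the study, and neither passed 2-fold.
Muscle had the least Hsd11b1, with 1.67, 4.38 and 1.65 FPKM (about 68, 185 and 70 fragments). HFD-veh was the high library, by 2.62-fold over NCD-veh (log2 ratio 1.34) and 2.66-fold over HFD-ncls (log2 ratio of HFD-ncls to HFD-veh -1.36). This is the library with liver transcripts. Over 582 liver-enriched genes, the median excess over HFD-ncls muscle was 0.567% of their level in HFD-veh liver, and the same share amounts to 1.91 FPKM of Hsd11b1. With that amount subtracted, HFD-veh muscle held 2.47 FPKM and the log2 ratios became 0.54 and -0.56, so neither passed 2-fold. Adipocyte markers differed in the same muscle libraries: 6 of 7 were higher with diet (median log2 ratio 1.05) and 5 of 7 were lower with ncls (median -0.56), among them Lep at 0.133, 5.04 and 1.60 FPKM, although their sums were 337, 383 and 372 FPKM. Their part in the muscle values of Hsd11b1, which is abundant in fat, and of Mt2 was not tested. The annotation also places genes on the opposite strand within Hsd11b1, and the strand setting of the quantification is not stated.

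Partners of Hsd11b1 in hormone supply were followed in liver. H6pd, which makes the cofactor for the reductase, had 100.5, 64.8 and 61.9 FPKM there. Serpina6, the corticosteroid-binding globulin of plasma, had 148, 343 and 315 FPKM. Serpina6 was over 2-fold higher in HFD-veh than in NCD-veh liver (log2 ratio 1.21), where 5.12% of all tested genes passed 2-fold in either direction. Both HFD livers lay close to each other, and the low library, NCD-veh, is the one high in acute-phase transcripts. The part of that state in the Serpina6 value was not tested. Akr1d1 and Srd5a1, reductases that inactivate steroids, stayed within 2-fold in liver in both comparisons. At 1.4-fold, 3 of 5 tested genes of hormone supply and receptors differed in liver with diet, against 23.8% of all genes. With ncls 2 of 5 were lower by over 1.4-fold (lowest log2 ratio -0.91), while 14.9% of all genes differed in either direction. Hsd11b2, the enzyme that inactivates corticosterone in kidney, did not reach 1 FPKM in any of the 12 libraries.

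**Figure D2:**
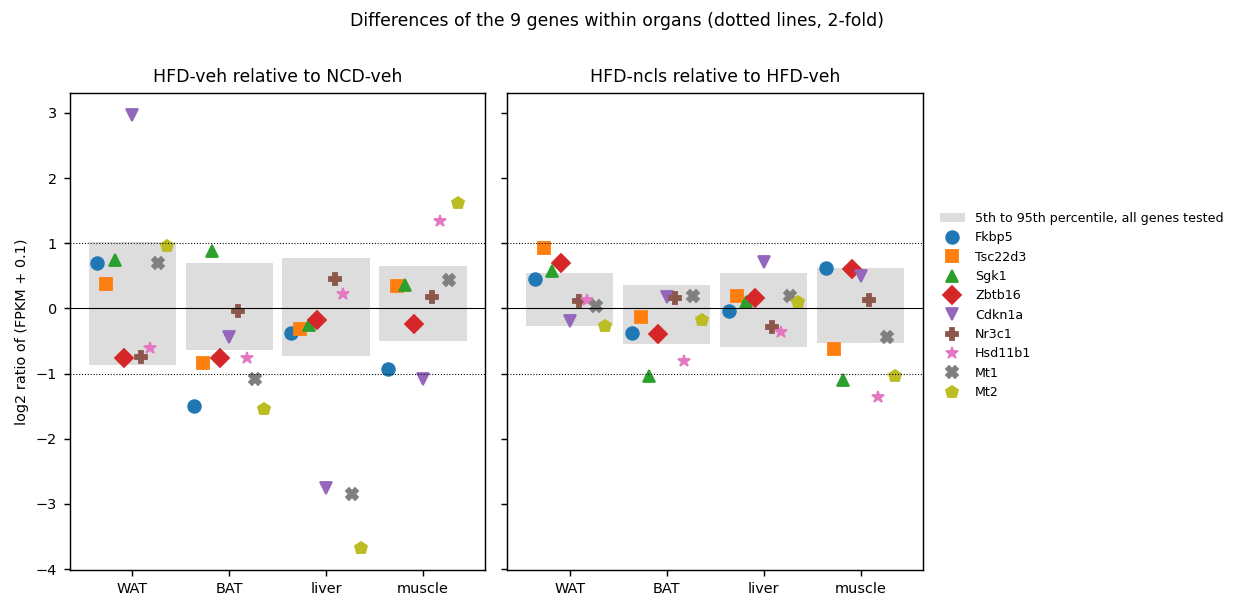
Log2 ratio of (FPKM + 0.1) for each of the 9 genes by organ, HFD-veh relative to NCD-veh on the left and HFD-ncls relative to HFD-veh on the right. Gray bands span the 5th to 95th percentile of all genes tested and dotted lines mark 2-fold. Diet differences reach from -3.68 (Mt2 in liver) to 2.98 (Cdkn1a in WAT), and ncls differences from -1.36 to 0.92.

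The induced genes Fkbp5, Tsc22d3, Sgk1 and Zbtb16 are widely used readouts of receptor activity. Fkbp5 encodes a co-chaperone that lowers the receptor's affinity for hormone and so closes a feedback loop. Tsc22d3 encodes the leucine zipper protein GILZ, which carries part of the anti-inflammatory action of the hormone. Sgk1 encodes a kinase that acts on ion channels and FOXO factors, and Zbtb16 encodes the zinc finger repressor PLZF. For 2 of the 4 genes, the reference genome holds the letters GAACANNNTGTTC, a core form of the receptor's palindrome that reads the same on both strands, within 10 kb of an annotated transcript start. They are shown because they are the kind of sequence through which the receptor is known to act on these genes.
Fkbp5 intron, mm9 chr17:28557257-28557289: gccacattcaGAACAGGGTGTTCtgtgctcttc
Fkbp5 intron, mm9 chr17:28579355-28579387: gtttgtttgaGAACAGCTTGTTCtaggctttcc
Sgk1 intron, mm9 chr10:21713498-21713530: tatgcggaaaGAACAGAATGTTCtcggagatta
Each run is read 5′ to 3′ on the gene's strand, with the 13 letters of the match in capitals and 10 bases on either side. Among all 9 genes of this report, the same 2 had such a match. Matches of the same kind lie within 10 kb of 2.59% of the 69978 protein-coding transcript starts of the annotation. This share counts starts, and a gene with several starts has more chances of a match. It is therefore no background for a count of genes, and the share of genes with a match was not computed. The Sgk1 match centers 182 bases before the nearest annotated start and the nearer Fkbp5 match 704 bases before one, both inside longer transcripts of these genes. These are matches of letters in the genome, and binding was not measured.

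Fkbp5 (chromosome 17, 28536040 to 28654469, minus strand) went in different directions with diet in WAT and in BAT. WAT had 9.98, 16.3 and 22.4 FPKM, so both HFD libraries were higher than NCD-veh. BAT had 8.29, 2.88 and 2.19 FPKM, and both HFD libraries were lower. The log2 ratio of HFD-veh to NCD-veh was 0.70 in WAT and -1.50 in BAT (2.88-fold lower), and 99.3% of genes tested in BAT had a higher ratio.
Muscle Fkbp5 was also lower in HFD-veh than in NCD-veh, while in liver the difference was within 1.4-fold and 15.5% of tested genes had a lower ratio. Liver Fkbp5 was 14.7 FPKM in NCD-veh and 11.3 in HFD-veh (log2 ratio -0.37), and HFD-ncls liver was level with the latter (log2 ratio -0.04). Muscle Fkbp5 was 11.5, 6.00 and 9.26 FPKM, with HFD-veh the lowest of the 3 by 1.93-fold against NCD-veh (log2 ratio -0.93) and HFD-ncls 1.54-fold above HFD-veh (log2 ratio 0.62). Subtraction of the liver share from HFD-veh muscle left 5.93 FPKM of Fkbp5. A 7SK RNA gene is annotated on the opposite strand within Fkbp5.

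Tsc22d3 (chromosome X, 137074067 to 137135198, minus strand) was most abundant in muscle in the NCD-veh and HFD-veh groups and in WAT in the HFD-ncls group. WAT had 45.1, 58.4 and 110.8 FPKM. The HFD-ncls library was the high one, 1.90-fold above HFD-veh (log2 ratio 0.92), and 1.83% of genes tested had a higher ratio. BAT had 29.2, 16.3 and 14.8 FPKM, with both HFD libraries below NCD-veh (log2 ratio of HFD-veh to NCD-veh -0.84).
Muscle showed another order, with 79.1, 99.9 and 64.8 FPKM. There HFD-ncls was the lowest library, 1.54-fold below HFD-veh (log2 ratio -0.62), in contrast to Fkbp5 in the same libraries. Liver stayed near 1 level, at 52.3, 42.1 and 47.8 FPKM.

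Sgk1 (chromosome 10, 21601990 to 21719709, plus strand) was highest in muscle, with 58.9, 75.6 and 35.3 FPKM. HFD-ncls muscle was 2.14-fold below HFD-veh (log2 ratio -1.10). BAT had the same order of groups, with 21.3, 39.2 and 19.0 FPKM, and HFD-ncls was 2.06-fold below HFD-veh (log2 ratio -1.04). Sgk1 was thus over 2-fold lower with ncls in both of these organs.
WAT differed, with 10.9, 18.3 and 27.2 FPKM and HFD-ncls the highest library, 1.49-fold above HFD-veh (log2 ratio 0.57). Liver had the least Sgk1, at 7.03, 5.85 and 6.30 FPKM, and its log2 ratios were -0.26 with diet and 0.11 with ncls. Markers of other cells also differed between these BAT libraries. Macrophage markers summed to 44.4, 60.8 and 39.2 FPKM in BAT, in the order of Sgk1, and 5 of 6 tested were lower with ncls (median log2 ratio -0.63), among them Cd68 at 3.62, 9.15 and 2.60 FPKM. Their part in the Sgk1 values was not tested. Fast-fiber markers were lower with ncls too, and the muscle share in HFD-veh BAT amounts to 0.523 FPKM of Sgk1, and the log2 ratio of HFD-ncls to HFD-veh was -1.02 after its subtraction.

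Zbtb16 (chromosome 9, 48462416 to 48644050, minus strand) stayed within 2-fold in all 8 comparisons. WAT had 17.0, 9.94 and 16.1 FPKM, with HFD-veh the low library (log2 ratios -0.77 to NCD-veh and 0.69 from HFD-veh to HFD-ncls). Muscle had 11.9, 10.1 and 15.5 FPKM, with HFD-ncls the high library (log2 ratio to HFD-veh 0.61). BAT had 8.50, 4.996 and 3.79 FPKM, in the order of Fkbp5 in that organ. Liver had 5.97, 5.28 and 5.93 FPKM.

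These 4 readouts did not move as a block in all organs. In WAT all 4 were higher with ncls, with log2 ratios of 0.46 (Fkbp5), 0.92 (Tsc22d3), 0.57 (Sgk1) and 0.69 (Zbtb16), and the last 3 passed 1.4-fold, which 6.39% of all tested genes passed upward there. In muscle Fkbp5 and Zbtb16 were higher with ncls while Tsc22d3 and Sgk1 were lower, each by over 1.4-fold (8.46% of all genes upward and 5.48% downward). In liver none of the 4 passed 1.4-fold in either comparison. With diet in BAT, Fkbp5, Tsc22d3 and Zbtb16 were lower by over 1.4-fold and Sgk1 was higher by 1.84-fold (log2 ratio 0.88), while 8.23% of all tested genes passed 1.4-fold downward and 9.34% upward.
Immediate-early genes, which respond within minutes to handling and other stimuli, also differed between these libraries. With diet in BAT, 9 of 9 were higher in HFD-veh, with a median log2 ratio of 1.78, and Fos went from 1.80 to 44.2 FPKM. In muscle 7 of 8 tested were higher in HFD-veh (median 1.58) and 7 of 8 were lower with ncls (median -0.41). In WAT 8 of 9 were higher with diet (median 0.52) and 7 of 9 were higher with ncls (median 0.33). Of these, 4 passed 1.4-fold upward with ncls, as 6.39% of all genes did. With ncls in BAT, 8 of 9 were lower (median -0.23). In liver 6 of 6 tested were higher with diet, with the highest median of the 4 organs (1.97), while liver Sgk1 was slightly lower (log2 ratio -0.26). Sgk1 is itself an early-induced gene, and the part of these differences in its values was not tested.

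Cdkn1a (chromosome 17, 29227924 to 29237667, plus strand) encodes a cyclin-dependent kinase inhibitor that is induced by the receptor and, more widely known, by p53. It had the largest diet difference of the 9 genes in WAT and the direction was opposite in liver. WAT had 9.73, 77.2 and 67.4 FPKM. Both HFD libraries were far above NCD-veh, HFD-veh by 7.94-fold (log2 ratio 2.98), and 0.582% of genes tested had a higher ratio.
Liver had 10.4, 1.46 and 2.45 FPKM, so that NCD-veh was 7.16-fold above HFD-veh (log2 ratio of HFD-veh to NCD-veh -2.76). The HFD-ncls library was 1.68-fold above HFD-veh (log2 ratio 0.71, about 114 against 65 fragments). Muscle had 6.49, 3.02 and 4.30 FPKM, and HFD-veh was 2.15-fold below NCD-veh (log2 ratio -1.08, or -0.90 with 1 FPKM added in place of 0.1). BAT kept a high level in all 3 groups, with 72.7, 53.7 and 60.3 FPKM.
Among 11 other p53 targets, all 11 were higher in HFD-veh than in NCD-veh WAT, with log2 ratios of 0.22 to 2.66 and a median of 0.48 against 0.03 for all genes tested. Gdf15, a stress-induced hormone, was the 1 that passed 2-fold upward, from 0.199 to 1.79 FPKM, as 5.24% of all tested genes did. In liver 4 of 8 tested were lower and 4 higher with diet (median log2 ratio 0.22). None passed 2-fold downward, and Gdf15 passed it upward, from 8.88 to 18.6 FPKM, while 5.12% of all genes passed in either direction. The acute-phase transcripts described next were high in the same NCD-veh liver library. In muscle 5 of 9 tested p53 targets were higher and 4 lower with diet, and none passed 2-fold, against 4.11% of all genes. In BAT 3 of 9 passed 2-fold with diet, Gdf15 and Btg2 upward and Trp53inp1 downward, against 4.29% of all genes in either direction. The paralogs Cdkn1b and Cdkn1c stayed within 2-fold in WAT, liver and muscle, and Cdkn1c was 2.07-fold higher in HFD-veh than in NCD-veh BAT (9.13 and 18.9 FPKM).

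Mt1 and Mt2 encode small cysteine-rich proteins that bind zinc and copper, and both are induced by metals through the factor MTF1, by glucocorticoids and in the acute-phase response. The genes lie side by side on chromosome 8 (Mt2 at 96696518 to 96697467 and Mt1 at 96702989 to 96704225, both on the plus strand), 5521 bases apart. Because the transcripts are short and alike, reads could be split between the genes in the quantification, and their FPKM depends on the length correction. Their promoters are shown because both genes differed in the same direction in BAT and liver, and carry the metal response cores TGCACNC and TGCGCNC (capitals, either strand, 250 bases before to 50 after the start, RefSeq sequences on GRCm38.p6).
Mt2, chr8:94172368-94172667, plus strand: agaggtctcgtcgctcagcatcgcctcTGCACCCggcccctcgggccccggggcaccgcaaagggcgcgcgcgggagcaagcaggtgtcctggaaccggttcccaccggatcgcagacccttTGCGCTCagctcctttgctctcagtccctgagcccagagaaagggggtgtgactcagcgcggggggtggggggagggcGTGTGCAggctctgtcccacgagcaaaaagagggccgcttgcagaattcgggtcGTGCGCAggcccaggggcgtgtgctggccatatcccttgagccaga
Mt1, chr8:94178839-94179138, plus strand: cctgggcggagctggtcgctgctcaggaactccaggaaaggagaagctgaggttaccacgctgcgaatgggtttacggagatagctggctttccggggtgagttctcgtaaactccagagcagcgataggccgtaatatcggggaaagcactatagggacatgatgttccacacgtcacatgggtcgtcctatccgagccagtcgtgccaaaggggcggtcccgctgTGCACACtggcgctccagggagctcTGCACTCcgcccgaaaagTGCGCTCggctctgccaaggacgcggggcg
The Mt2 window held 4 cores and the Mt1 window 3. Among 32851 RefSeq promoter windows of this length, 0.517% held at least 4 and 1.97% at least 3. The palindrome searched above was found in neither window, and in 0.0578% of all windows, 1 of them an Sgk1 window.

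Liver held 1431, 199.5 and 227 FPKM of Mt1 and 584, 45.5 and 48.8 FPKM of Mt2. NCD-veh liver stood apart for both genes, 7.17-fold above HFD-veh for Mt1 (log2 ratio of HFD-veh to NCD-veh -2.84) and 12.8-fold for Mt2 (-3.68). In BAT, Mt1 had 1281, 605 and 691 FPKM and Mt2 had 280, 95.5 and 84.9, so that NCD-veh was again the high library, by 2.12-fold and 2.93-fold over HFD-veh.
WAT went the other way, within 2-fold. Mt1 had 343, 554 and 568 FPKM, and Mt2 161, 312 and 260 (log2 ratios of HFD-veh to NCD-veh 0.69 and 0.95). Muscle had far less of both, with 22.0, 29.8 and 22.0 FPKM of Mt1 and 4.80, 15.0 and 7.28 of Mt2. For Mt2 the HFD-veh muscle library was 3.13-fold above NCD-veh (log2 ratio 1.62) and 2.06-fold above HFD-ncls (log2 ratio -1.04). The liver share in this library amounts to 0.258 FPKM of Mt2, and after its subtraction the log2 ratios were 1.60 and -1.01.
The ratio of Mt1 to Mt2 was not fixed. It ranged from 1.77 in HFD-veh WAT to 8.14 in HFD-ncls BAT, and in liver it was 2.45, 4.38 and 4.66. Of 5 other genes of metal handling tested in liver (among them the sensor Mtf1 and the exporter Slc30a1), 4 were lower with diet (median log2 ratio -0.12). Only Slc30a10, a manganese exporter, passed 2-fold, at 8.18, 3.07 and 3.68 FPKM. It was lower in HFD-veh, as 2.27% of all genes were by over 2-fold.

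Acute-phase genes differed in the same liver libraries. All 8 in the list (Saa1, Saa2, Saa3, Orm1, Orm2, Hp, Hpx and Lcn2) were lower in HFD-veh liver by over 2-fold, with log2 ratios from -6.94 to -1.43 and a median of -4.75. Saa1, serum amyloid A, had 7071, 132 and 299 FPKM, and Lcn2, a siderophore-binding protein, 681, 10.2 and 11.6. Clock genes differed there too: Dbp had 3.87, 54.8 and 37.7 FPKM and Arntl, its counterpart in the opposite phase of the day, 5.61, 0.457 and 1.52. The part of the acute-phase state or of the time of day in the values of Mt1, Mt2 and Cdkn1a was not tested.
The 4 readouts Fkbp5, Tsc22d3, Sgk1 and Zbtb16 were at most 1.30-fold higher in that NCD-veh liver library than in HFD-veh liver. Of the 9 genes, 3 were over 2-fold lower in HFD-veh liver, Mt1, Mt2 and Cdkn1a, whereas 2.27% of all 10016 tested genes were (5.12% in either direction). The other 6 stayed within 1.4-fold, which 23.8% of all genes passed in either direction.

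**Figure D3:**
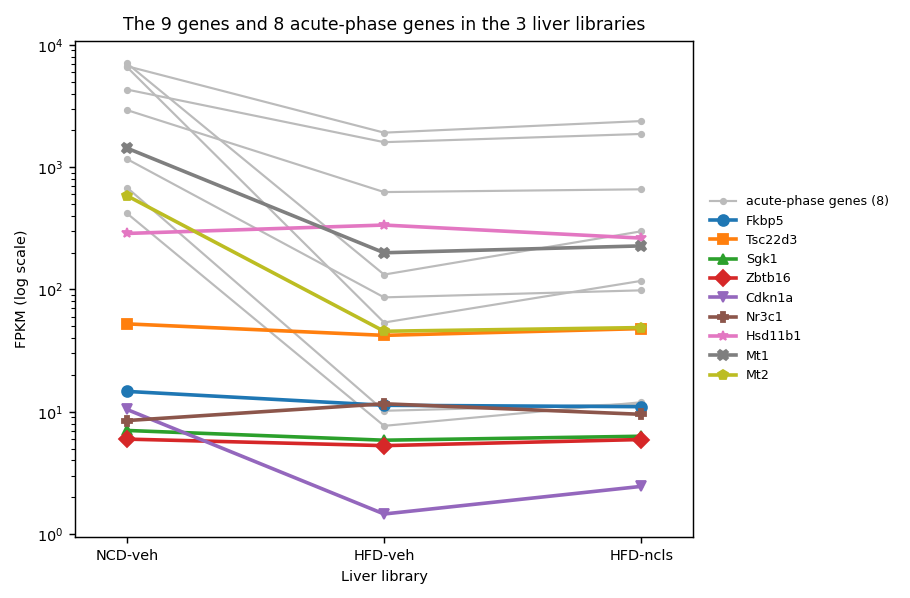
FPKM (log axis) of the 9 genes (colored) and 8 acute-phase genes (gray) in the 3 liver libraries, with lines joining the values of 1 gene. Mt1, Mt2 and Cdkn1a lie lower in both HFD libraries, as the acute-phase genes do, while the other 6 lines are nearly level.

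With diet, 10 of the 36 ratios (9 genes in 4 organs) passed 2-fold, against 5.84% of the ratios of all tested genes. In WAT 1 of 9 genes passed, Cdkn1a, against 9.11% of all tested genes, which is a share near the background. In BAT 3 genes passed, all lower in HFD-veh (Mt2, Fkbp5 and Mt1), against 2.01% of all genes in that direction and 4.29% in either. In muscle Mt2 and Hsd11b1 were higher, against 3.14% of all genes, and Cdkn1a was lower, against 0.97% (4.11% in either direction). The median log2 ratio of the 9 genes was 0.69 in WAT, -0.77 in BAT, -0.31 in liver and 0.34 in muscle, while that of all tested genes was -0.04 to 0.04.
At 1.4-fold, 8 of 9 genes differed with diet in WAT, 5 higher against 16.3% of all genes and 3 lower against 13% (29.3% in either direction). In BAT 7 of 9 differed, 1 higher and 6 lower, against 17.6% of all genes in either direction. In muscle 4 of 9 differed against 13.3%.

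Between HFD-ncls and HFD-veh, 4 of 36 ratios passed 2-fold, against 2.39% of the ratios of all genes. All 4 were lower in HFD-ncls. They were Sgk1 in BAT, where 1.7% of all genes were lower (1.96% in either direction), and Hsd11b1, Sgk1 and Mt2 in muscle, where 2.53% were lower (3.8% in either direction). After subtraction of the liver share from HFD-veh muscle, Sgk1 and Mt2 still passed and Hsd11b1 did not. No gene passed in WAT or liver, where 1.7% and 2.31% of all genes differed in either direction. At 1.4-fold, 3 of 9 genes differed in WAT, all higher, against 6.39% of all genes in that direction and 7.68% in either. In BAT 2 were lower, Hsd11b1 and Sgk1, against 6.28% of all genes (8.53% in either direction). In liver Cdkn1a was higher, against 6.88% (14.9% in either direction). In muscle 3 were higher and 4 lower, 7 in all, against 13.9% in either direction. Both contrasts use the HFD-veh libraries, so that their values are not independent of each other.

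**Figure D4:**
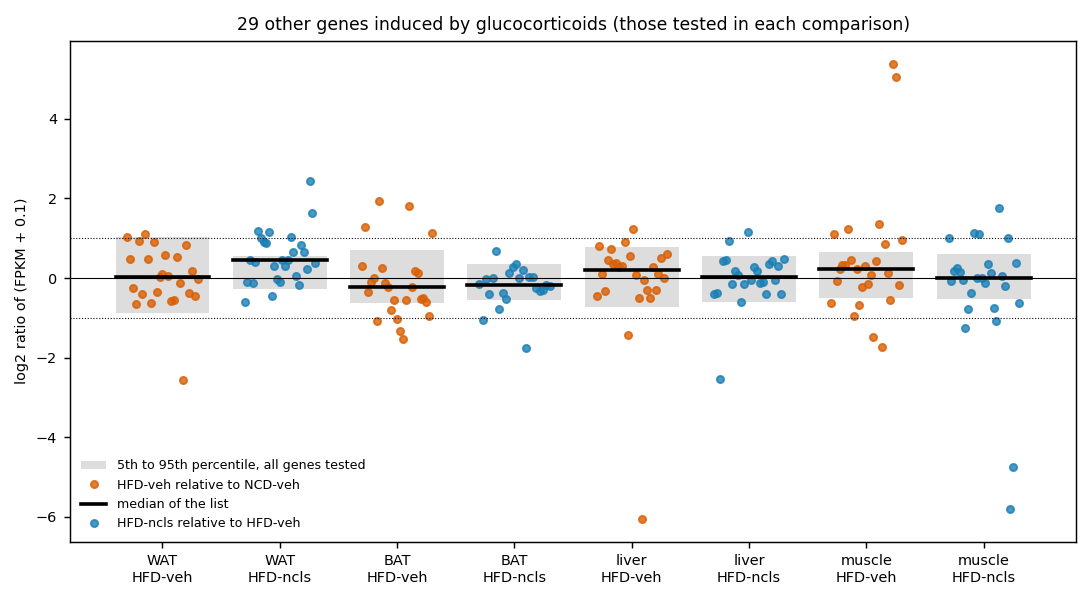
Log2 ratio of (FPKM + 0.1) for the genes of a wider list of 29 glucocorticoid-induced genes that were tested in each comparison, with 1 point per gene, a black bar at their median and a gray band for the 5th to 95th percentile of all genes. The median in HFD-ncls WAT is 0.45, and the points near 5 and -5 in muscle are the liver genes Tat and Tdo2.

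A wider list of 29 other genes known to be induced by glucocorticoids was followed in the same libraries. In HFD-ncls against HFD-veh WAT, 20 of the 27 tested genes were higher, the median log2 ratio was 0.45 against 0.04 for all genes, and 11 of 27 passed 1.4-fold upward, as 6.39% of all genes did. Tat, Tdo2, Cebpd, Fam107a and Lcn2 passed 2-fold upward, as 1.49% of all genes did. Cebpd, a transcription factor of adipocyte differentiation and inflammation, had 9.99, 7.54 and 17.3 FPKM. Tat and Tdo2 are amino acid-degrading enzymes of liver, with 3.28 and 2.08 FPKM in this library, which also held other hepatocyte markers. After subtraction of the liver share 3 genes passed 2-fold and the median was still 0.45. Lcn2 is also in the acute-phase list above, of which 6 of 7 tested genes were higher in this comparison (median log2 ratio 0.55). Hpx, Saa3 and Lcn2 passed 2-fold, and Saa3 had 7.56, 61.8 and 132 FPKM. Hpx had 0.0686, 1.69 and 4.89 FPKM, in the order of most hepatocyte markers in WAT, and the part of liver RNA in it was not tested. The part of the acute-phase genes' difference in the WAT values was not tested.
Clock genes also differed in the same WAT libraries: Per2 had 3.88, 3.09 and 7.06 FPKM and Dbp 45.7, 18.6 and 31.5. Per1, a clock gene that the receptor also induces, had 15.2, 11.8 and 21.1 FPKM. Whether the time of collection or the hormone's daily cycle has a part in the WAT values was not tested.

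In muscle the wider list was split. Pdk4, the kinase that shuts off pyruvate oxidation, had 404, 122 and 415 FPKM. Fbxo32, a ubiquitin ligase of muscle protein breakdown, had 104.7, 54.0 and 119.5 FPKM, and Foxo3, a transcription factor that induces it, 2.11, 1.28 and 2.89. For these 3 genes HFD-veh was the low library, as it was for Fkbp5. Ddit4, an inhibitor of mTOR signaling, had 5.09, 6.36 and 2.60 FPKM, with HFD-ncls the low library as for Sgk1 and Tsc22d3. Of 26 genes tested between HFD-ncls and HFD-veh muscle, 5 were over 2-fold higher (Pdk4, Fbxo32, Foxo3, Angptl4 and Sesn1) and 4 over 2-fold lower (Tat, Tdo2, Ddit4 and Pck1), against 1.27% and 2.53% of all genes, with a median log2 ratio near 0. After subtraction of the liver share from HFD-veh muscle, 5 were higher and 2 lower, of 25 tested. Tat had 0.0339 FPKM in NCD-veh and 5.51 in HFD-veh muscle and was listed at 0 in HFD-ncls muscle. HFD-veh, its high library, is the library with liver transcripts. The liver share there amounts to 4.12 FPKM of Tat, and 1.39 FPKM remained after its subtraction. Clock genes also differed in muscle with diet, where 6 of 12 tested passed 1.4-fold against 13.3% of all genes. With ncls none of the 12 passed it. Dbp had 19.4 FPKM in NCD-veh and 55.2 in HFD-veh muscle. The part of the time of day in the muscle values was not tested.

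In BAT the wider list differed with diet in both directions: 4 genes were over 2-fold higher in HFD-veh (Dusp1, Lcn2, Anxa1 and Zfp36) and 4 over 2-fold lower (Klf15, Glul, Ddit4 and Gadd45b), against 2.28% and 2.01% of all genes. Klf15, a regulator of amino acid use, had 11.4, 3.89 and 3.86 FPKM, in the order of Fkbp5. Glul, glutamine synthetase, had 925, 370 and 476 FPKM. Dusp1, a phosphatase that is also an early response gene, had 10.2, 39.1 and 22.7 FPKM, in the order of Sgk1. With ncls in BAT, 2 of 22 tested genes passed 2-fold, Lcn2 and Anxa1, both lower. Of all tested genes, 1.7% were lower by over 2-fold there and 1.96% differed in either direction. The list's median log2 ratio with diet was -0.23 in BAT, 0.02 in WAT, 0.19 in liver and 0.23 in muscle. In WAT 3 of 25 tested genes passed 2-fold with diet, against 9.11% of all genes. Ddit4 and Angptl4 were higher, and Pck1 was lower, with 836 FPKM in NCD-veh and 141 in HFD-veh. At 1.4-fold 7 were higher and 5 lower, against 29.3% of all genes in either direction.
In liver 3 of 26 genes of the wider list passed 2-fold with diet, against 5.12% of all genes, and 2 of 24 with ncls, against 2.31%. Igfbp1, an insulin-repressed binding protein, had 30.7, 72.7 and 162 FPKM, Bcl6, a transcriptional repressor, 13.3, 14.3 and 2.39, and Gadd45b 1.73, 0.576 and 0.368. Lcn2 belongs with the acute-phase genes above.

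The profile of each gene over the 8 differences (4 organs, diet and ncls) was compared with those of 8060 other genes that had at least 1 FPKM in at least 1 library of every organ, by the root mean square difference of the log2 ratios. The 8 differences share HFD-veh libraries, and the measure is a description. Mt1 was the gene closest to Mt2 (0.61), followed by the acute-phase genes Orm1 (0.90) and Lrg1 (0.95). Seen from Mt1, the closest were Lrfn3 (0.49), Lrg1 (0.53) and Mpzl1 (0.53), and Mt2 ranked 5.
Rhob, a small GTPase gene of the wider list, was the closest to Tsc22d3 (0.26), followed by Gatsl3 (0.30) and Txndc11 (0.31). Among the 4 readouts themselves, Zbtb16 ranked 490 of 8060 from Fkbp5, Tsc22d3 ranked 1683 and Sgk1 7844, so the profiles of Fkbp5 and Sgk1 were far apart. The closest to Fkbp5 were Lum (0.42), Med22 (0.43) and Zhx3 (0.43), to Sgk1 Afmid (0.38), Emp3 (0.39) and Nr2c2ap (0.39), and to Zbtb16 Pfkm (0.23), Pkdcc (0.26) and Ip6k2 (0.27).
Nr3c1 had the closest neighbors of the 9, Add3 (0.08), Suclg2 (0.09) and Bivm (0.09), beside a small spread of its own (0.34). The nearest neighbor of Cdkn1a was the most distant of the 9, Phospho1 (0.76), followed by Nedd4l (0.84) and Nfil3 (0.91), and Mt1 ranked 17. Pgrmc1 (0.34), Mgst1 (0.38) and Pygl (0.38) were closest to Hsd11b1, and all 3 had log2 ratios above 1 in HFD-veh muscle, the library with liver transcripts.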

How the data were processed

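The deposited FPKM values, 1 per symbol and library, come from Cufflinks and a RefSeq annotation, after the authors had mapped the reads with TopHat 2.0.11 on the mouse build mm9. Groups were taken from the sample titles. The members and lists were chosen with earlier results of these data known. Computations used Python 3.11.15, numpy 2.4.6 and pandas 2.3.3, and plots matplotlib 3.10.9. With 1 library per group no test was run. A pseudocount of 0.1 and a minimum of 1 FPKM in either library were used, and 86 symbols lacked a value in at least 1 library. Both fold thresholds, 2 and 1.4, were taken from the study. Depth is approximate: it is the number of fragments at which FPKM times transcript length of low values fell closest to whole numbers, over 936 to 1207 genes with 1 annotated transcript. Genes were enriched in liver or muscle at a mean of at least 10 FPKM and 20 times their median over the 9 libraries of other organs. The RNA share of such an organ was the median excess over the library of the same organ with the least, as a percentage of the source library. From other lists, the genes named were up to 3 per comparison furthest from 0 among those over 2-fold, and for each member the 3 with the closest profile. Other genes, among them Nr3c2, H6pd, Akr1d1, Srd5a1, Per1, Per2, Dbp, Arntl, Fos, Klf15, Glul and the genes listed beside a count, were named after their values were seen. Positions are from GENCODE on mm9, and promoter sequences, which 7 of the 9 genes matched, from RefSeq on GRCm38.p6. Alternatives covered the pseudocount, the minimum, centering and subtraction of RNA shares.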

Additional observations from a re-analysis of the deposited data

Results flagged for a closer look

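Differences with diet that passed 2-fold in opposite directions in different organs were found for Cdkn1a and Mt2. With 1 library per group, whether the organs differ was not tested. For Cdkn1a the log2 ratio of HFD-veh to NCD-veh was 2.98 in WAT, -2.76 in liver and -1.08 in muscle. For Mt2 it was 1.62 in muscle, -1.55 in BAT and -3.68 in liver.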

How the results depend on the processing

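Of 96 counts recomputed under the alternatives, 90 stayed within 1.5 times. For the wider list between HFD-ncls and HFD-veh WAT, the 5 genes over 2-fold became 2 with a pseudocount of 1 FPKM, 2 with a minimum of 5 FPKM and 3 after subtraction of the liver share. In BAT the 2 genes became 0 with a pseudocount of 1 FPKM and 1 with a minimum of 5 FPKM, and in muscle the 9 genes became 5 with a pseudocount of 1 FPKM. A pseudocount of 1 FPKM shrinks ratios of low genes and a higher minimum tests fewer genes by construction. Of 426 recomputed log2 ratios of the 9 genes, 422 stayed on their side of 2-fold and none that had passed it changed sign. The 4 that no longer passed were those of Cdkn1a (-0.90, diet) and Mt2 (-0.95, ncls) in muscle with a pseudocount of 1 FPKM, and both of Hsd11b1 in muscle after subtraction of the liver share. Centering on the median of all genes turned the sign of Mt1 in HFD-ncls WAT (0.04 to -0.01). Subtraction of the muscle share from both vehicle BAT libraries, chosen after seeing the data, left 3 of the 9 genes over 2-fold. No paired analysis was possible because each organ and group has 1 library. Without replicates the spread between animals is unknown for every value, and depth limits mainly the lowest levels, which rest on about 65 to 70 fragments.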
